A study of Mus musculus with 33 samples.

Results

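Gene expression at day 6 of differentiation was compared with that at day 5 in embryonic stem (ES) cells of 2 mouse lines. The comparison rests on 4 of the 12 RNA-seq libraries and 33 samples of the series, picked by their labelled day: RepB at day 6, WT at day 6, RepB at day 5 and WT at day 5, with 1 library each. Both lines are hybrids of the strains CAST/Ei and 129/Sv/Jae. The RepB genotype takes its name from Repeat B of Xist, the noncoding RNA that silences an X chromosome in female cells. Its edit is not described in the labels, nor is it said whether either line is a single clone. WT is labelled wildtype. Both lines shared the culture: irradiated feeder fibroblasts and LIF before day 0, removal of feeders, embryoid bodies in suspension for 4 days in serum without LIF, and then gelatin-coated plates. The days compared are thus the first and the second day after plating. PolyA RNA was sequenced, and reads over strain variants were also counted by allele, named cas and mus in the deposited table.

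The primitive streak is the structure through which cells of the epiblast, the pluripotent tissue of the early embryo, leave to become mesoderm and definitive endoderm. It is induced by Wnt3, Nodal and BMP signals and marked by the T-box factors T and Eomes and the homeobox factor Mixl1. Cells that leave it switch from E-cadherin to N-cadherin under Snai1 and shut down pluripotency genes. Differentiating ES cells run through a similar order of genes in embryoid bodies, and X-inactivation in female lines takes place over the same days.

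The regulatory sequence next to the start of streak genes that rose is shown first. Mixl1 and Sox17 rose too but had no entry among the promoters used. The window runs from 250 bases before the start to 50 bases from it on, from RefSeq (GRCm38.p6). It was searched on both strands for the LEF/TCF core CTTTGA, the T-box motif AGGTGT and the GATA core AGATAA, motifs that do not overlap one another in the lines below. Capitals mark matches to either of the first 2 motifs, written TCAAAG or ACACCT where the match is on the other strand. Of 6 streak genes examined (Mesp1, Evx1, Gsc, T, Tbx6 and Wnt3), these 3 held a match:
Mesp1, chr7:79793541-79793840, minus strand: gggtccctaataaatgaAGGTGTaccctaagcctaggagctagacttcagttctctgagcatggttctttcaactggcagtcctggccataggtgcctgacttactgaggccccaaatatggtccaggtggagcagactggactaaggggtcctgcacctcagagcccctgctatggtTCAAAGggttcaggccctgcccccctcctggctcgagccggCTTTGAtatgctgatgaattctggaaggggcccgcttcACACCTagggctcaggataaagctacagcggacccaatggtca
T, chr17:8434173-8434472, plus strand: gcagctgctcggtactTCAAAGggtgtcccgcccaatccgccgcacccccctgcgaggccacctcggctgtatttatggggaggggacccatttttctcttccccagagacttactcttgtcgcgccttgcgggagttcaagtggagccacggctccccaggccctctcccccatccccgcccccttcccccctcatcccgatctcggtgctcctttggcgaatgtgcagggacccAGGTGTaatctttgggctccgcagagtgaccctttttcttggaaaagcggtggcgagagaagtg
Evx1, chr6:52313248-52313547, plus strand: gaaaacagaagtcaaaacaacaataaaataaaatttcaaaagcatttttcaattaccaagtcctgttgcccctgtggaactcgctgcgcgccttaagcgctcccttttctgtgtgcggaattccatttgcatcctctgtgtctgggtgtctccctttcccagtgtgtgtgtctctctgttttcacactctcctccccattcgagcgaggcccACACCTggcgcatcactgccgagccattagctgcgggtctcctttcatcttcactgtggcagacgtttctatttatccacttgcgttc

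Mesp1, a basic helix-loop-helix factor of the first mesoderm, held T-box motifs at -233 and, on the other strand, 8 from its start. It also held LEF/TCF cores at -31 and, on the other strand, at -72. T, the founding T-box factor, held a T-box motif at -14 and a LEF/TCF core on the other strand at -234. Evx1, a homeobox factor of the posterior streak, held 1 T-box motif on the other strand, at -38. No match to these letters lay in the windows of Gsc, Tbx6 and Wnt3. The motifs were not rare: the LEF/TCF core was in 16.0% of all 32851 promoters of the table, in 12.3% of 790 promoters of genes that rose and in 11.5% of 10312 promoters of genes tested. It was in 10.5% of 674 promoters of genes that fell. The T-box motif was in 13.7% of all promoters, 10.3% of those of genes that rose, 13.9% of those of genes that fell and 10.9% of those of genes tested. For the GATA core these shares were 11.2%, 4.68%, 5.93% and 5.80%.

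The library totals were 6977752 counts for RepB and 14409430 for WT at day 6, against 5297648 for RepB and 17773138 for WT at day 5. Levels are given below as CPM, the counts of a gene scaled to an equal library total, and an absent gene is bounded by 3 counts, which is 0.430 and 0.208 CPM in RepB and WT at day 6 and 0.566 and 0.169 CPM at day 5. CPM values are not scaled for gene length, so levels are compared between libraries and not between genes. In bulk RNA, fewer cells that express a gene and less RNA per cell cannot be told apart. The markers fit the label of differentiating ES cells. Over 6 ES cell markers the summed level was 2186 and 1783 CPM in RepB and WT at day 6, against 3182 and 2594 CPM at day 5, and over 6 streak and mesoderm markers it was 1653 and 1564 CPM against 396 and 168 CPM. The 4 definitive endoderm markers summed to 53.6 and 75.6 CPM in RepB and WT at day 6, against 18.7 and 18.3 CPM at day 5. The 5 blood and endothelial markers summed to 68.9 and 35.1 CPM against 89.7 and 70.0 CPM, mostly from Pecam1. Markers of visceral endoderm, trophoblast and neural cells were low. The 5 visceral endoderm markers summed to 4.73 and 2.22 CPM in RepB and WT at day 6, against 3.21 and 3.94 CPM at day 5. Most of this came from Hnf4a, with Ttr and Afp at 3 counts or fewer per library. The 4 trophoblast markers summed to 6.31 and 2.91 CPM in RepB and WT at day 6, against 6.98 and 2.48 CPM at day 5, nearly all from Gcm1, with Elf5, Tpbpa and Prl3d1 at 2 counts or fewer. The 4 neural markers, mainly Sox1 and Pax6, summed to 3.30 and 13.6 CPM in RepB and WT at day 6, against 6.04 and 10.7 CPM at day 5.

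Of 13669 genes tested, 1074 rose (7.86%) and 894 fell (6.54%) at day 6, at an adjusted p under 0.05 in edgeR's quasi-likelihood test with line as block. All of them moved the same way in both lines, which the test favours, since its residual is the difference between the lines' steps. Rises were the larger changes: 206 genes rose by at least 2 on the log2 scale and 98 by at least 3, against 11 and 0 genes that fell by as much. At least 4-fold in both lines, 104 genes rose and 0 fell, although 3766 genes had an unadjusted p under 0.05. Few genes, 4 of those tested, changed at least 2-fold in opposite directions. Each p measures how alike the step was in 2 lines of 1 time course and says nothing of other cultures, since the labels name no replicate culture. The day and the dish harvested on it cannot be told apart. The counts of calls were sensitive to the libraries used. With the spread taken from all 10 libraries of days 5 to 10, 608 genes rose and 237 fell, and in that fit they were 367 and 62 without WT day 6, 355 and 31 without RepB day 6, 260 and 18 without WT day 5 and 416 and 121 without RepB day 5. Under every one of the 11 alternatives, 195 of the 1074 rises and 2 of the 894 falls were called.

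**Figure D1:**
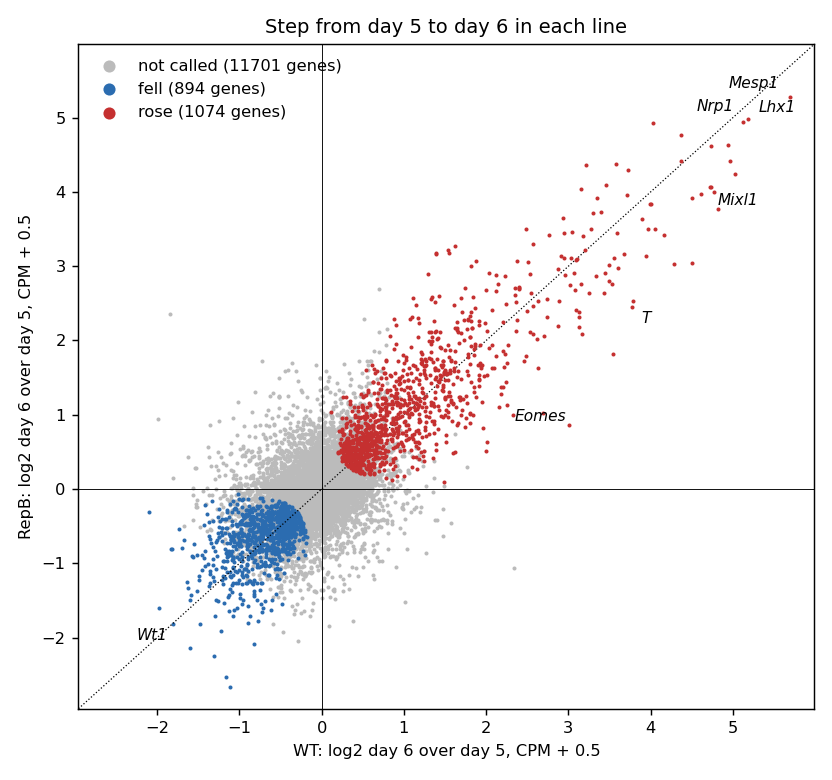
Log2 of the day 6 over the day 5 level (CPM + 0.5) in RepB (vertical) and WT (horizontal), 1 point per gene tested; red points rose (1074), blue points fell (894) and grey points did not pass the test, and the dotted line marks equal steps. The rises reach much farther from 0 than the falls, and T and Eomes lie below the dotted line.

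Primitive streak regulators were among the genes that rose most. Of 30 listed, 29 were tested, 20 rose and 2 fell, with a median log2 change of 1.70 beside -0.01 over all genes tested. The counts of this and the later lists stand beside 7.86% rising and 6.54% falling over all genes tested. T (chromosome 17, mm9, first listed exon 8627288 to 8627601) had 682 and 637 CPM in RepB and WT at day 6, against 124 and 46.1 CPM at day 5. Both day 6 libraries lay above both day 5 libraries, and the log2 change was 3.13 ± 0.24 (SE, adjusted p = 5.4e-06). Mixl1 (chromosome 1, 182623179 to 182625052), a homeobox factor of streak mesendoderm, stood at 205 and 200 CPM in RepB and WT at day 6, against 11.7 and 7.09 CPM at day 5 (log2 4.55 ± 0.16, adjusted p = 2.3e-08). Evx1 had 146 and 148 CPM in RepB and WT at day 6, against 17.6 and 7.09 CPM at day 5 (log2 3.80 ± 0.23). For each of these genes the 2 lines were close at day 6 and differed more at day 5.

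Mesp1 (chromosome 7, 86937127 to 86937477) showed the largest change among streak genes. It had 85.0 and 66.1 CPM in RepB and WT at day 6, against 1.70 and 0.79 CPM at day 5, which rest on 9 and 14 counts (log2 6.11 ± 0.21, adjusted p = 2.3e-08). Lhx1, a LIM homeobox factor of the anterior streak and node, had 135 and 185 CPM in RepB and WT at day 6, against 3.78 and 4.61 CPM at day 5 (log2 5.29 ± 0.14). Gsc, the organizer homeobox factor goosecoid, had 42.6 and 58.0 CPM against 5.85 and 4.56 CPM in the same order (log2 3.39 ± 0.20). Anterior and posterior streak genes rose over the same day. Cdx2, a homeobox factor of the posterior body axis, had 9.46 and 8.74 CPM in RepB and WT at day 6, against 0.57 and 0.51 CPM at day 5 (log2 4.08 ± 0.34).

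Other streak genes changed less or did not pass the test. Eomes had 529 and 507 CPM in RepB and WT at day 6, against 241 and 106 CPM at day 5 (log2 1.70 ± 0.21, adjusted p = 0.00021). That call was lost without a line block, with the spread of 10 libraries and in that fit without WT day 6, RepB day 6 or WT day 5. Fgf8, a growth factor that streak cells need to migrate, stood at 223 and 211 CPM at day 6 against 86.1 and 58.3 CPM at day 5 in RepB and WT (log2 1.63 ± 0.13); it was not called without RepB day 6 or WT day 5. Tbx6, a T-box factor of paraxial mesoderm, had 5.73 and 5.55 CPM in RepB and WT at day 6, against 0.19 CPM, a single count, and 1.58 CPM at day 5 (log2 2.30 ± 0.42, adjusted p = 0.0035). It was not called without a line block, after thinning to equal depth or without RepB day 6. Nodal, the ligand that patterns the streak, had 154 and 120 CPM in RepB and WT at day 6, against 139 and 90.5 CPM at day 5, and did not pass the test (log2 0.28 ± 0.10, adjusted p = 0.10). Its co-receptor Tdgf1 and its nuclear partner Foxh1 did not pass either, with log2 changes of 0.06 and 0.17. The 2 list members that fell were Fgf4 and Otx2, which are also expressed in the epiblast before the streak.

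**Figure D2:**
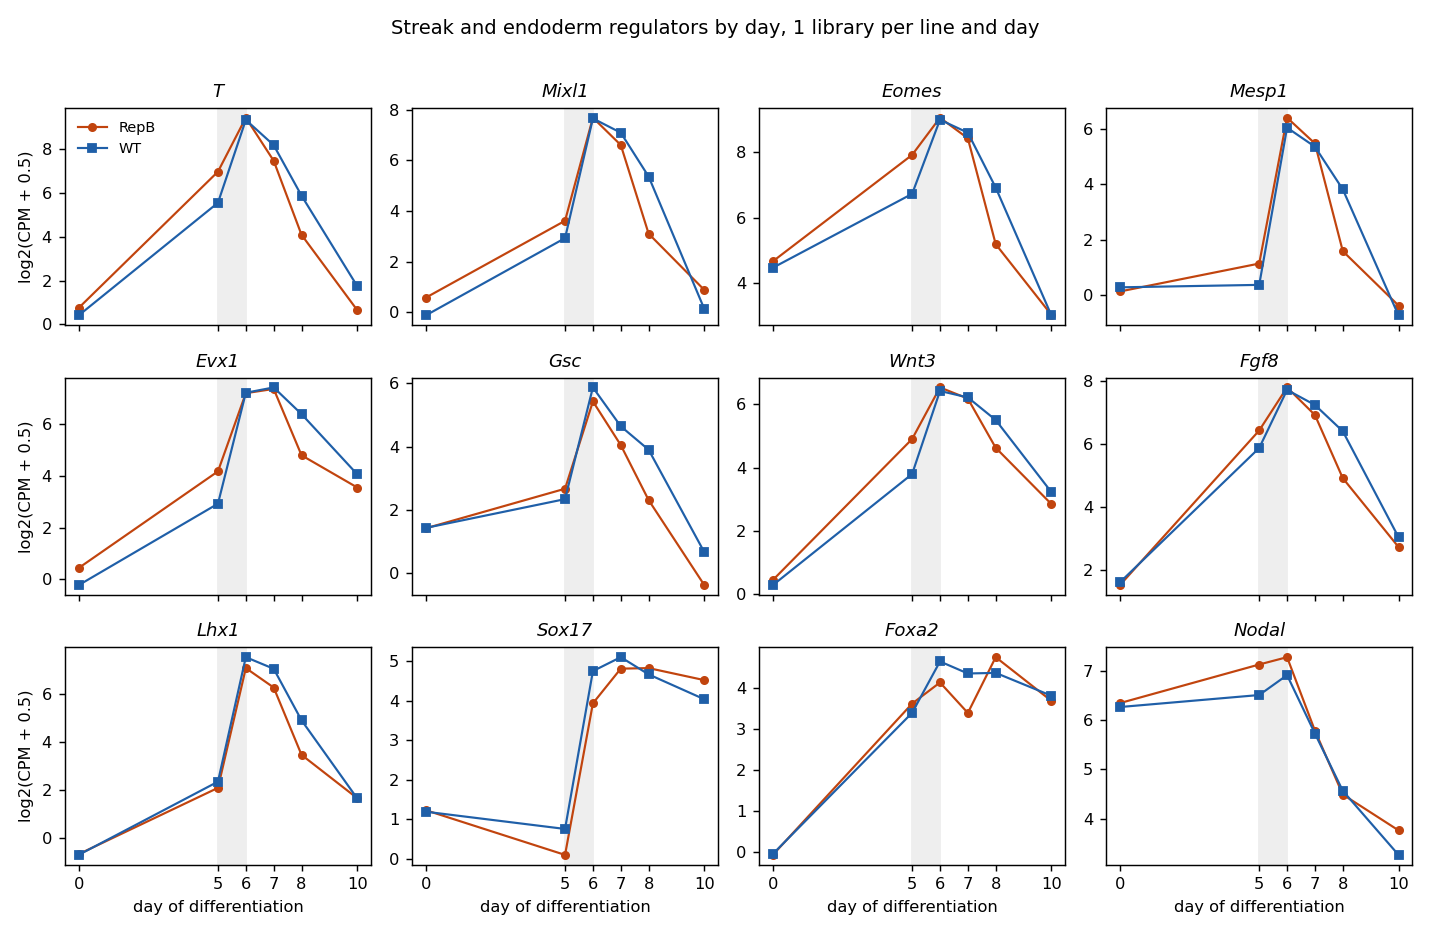
Log2 of CPM + 0.5 by day of differentiation for 12 streak and endoderm regulators, with 1 point per library (circles RepB, squares WT) and the step from day 5 to day 6 shaded. T, Mixl1, Eomes, Mesp1, Gsc and Lhx1 are highest at day 6 in both lines, while Sox17 stays up and Nodal moves by less than 1 log2 unit over the shaded step. Each panel has its own vertical scale.

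Early mesoderm genes had the highest share of rises among the lists with over 10 members tested: 26 of 31 rose, 1 fell, and the median log2 change was 3.20. The filter on low counts admits a gene that is near absent at day 5 through its day 6 counts alone. Such a gene can only rise, so this share and the ranking of lists depend in part on the filter. Of 35 genes listed, 4 were not tested. Pdgfra, a growth factor receptor of paraxial and cardiac mesoderm, had 66.8 and 73.0 CPM in RepB and WT at day 6, against 2.64 and 1.86 CPM at day 5 (log2 5.10 ± 0.19). Kdr, the VEGF receptor of blood and vessel progenitors, had 72.7 and 72.1 CPM against 4.15 and 2.48 CPM (log2 4.60 ± 0.19). Snai1, the repressor of E-cadherin, had 70.5 and 73.3 CPM in RepB and WT at day 6, against 6.04 and 5.63 CPM at day 5 (log2 3.65 ± 0.15). Each of these 3 genes rose over 10-fold in both lines. Gata6, a zinc finger factor of mesoderm and endoderm, had 49.0 and 59.4 CPM in RepB and WT at day 6, against 1.51 and 1.74 CPM at day 5 (log2 5.07 ± 0.19). Its relative Gata4 had 49.6 and 43.6 CPM against 3.02 and 2.25 CPM in the same order. Msgn1, a factor of presomitic mesoderm, had 91 and 120 counts in RepB and WT at day 6, against 1 and 3 counts at day 5. Its fold was 69.1 in RepB (95% interval from counting error 12.1 to 2758) and 49.3 in WT (16.5 to 243). Foxf1, a forkhead factor of lateral mesoderm, had 31 and 45 counts at day 6 against 0 and 2 at day 5 in RepB and WT, at least 7.85-fold higher in RepB with 3 counts as the floor. Genes of later mesoderm were low but rising: Isl1 and Hand2 had 3.82 to 5.45 CPM at day 6 and at most 0.38 CPM at day 5. Tcf15, a factor of somites that is also expressed in epiblast, was the member that fell. Of the 26 rises, 18 were called under all 11 alternatives.

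Definitive endoderm and node genes rose as well, 12 of 20 with 3 falls and a median log2 change of 1.51. Sox17, the factor that specifies definitive endoderm, had 14.8 and 26.4 CPM in RepB and WT at day 6, against 0.57 and 1.18 CPM at day 5 (log2 4.52 ± 0.25, adjusted p = 4.2e-07). Cxcr4, a chemokine receptor of migrating mesendoderm, had 28.4 and 25.2 CPM against 2.83 and 1.69 CPM. Cer1, a secreted inhibitor of Nodal and BMP, stood at 16.8 and 16.7 CPM in RepB and WT at day 6, against 1.13 and 1.41 CPM at day 5. Foxa2, the forkhead factor of endoderm and node, changed less, with 16.9 and 24.3 CPM at day 6 against 11.7 and 9.96 CPM at day 5 (log2 1.00 ± 0.20, adjusted p = 0.0060). Its call was lost under DESeq2, with the spread of 10 libraries, without a line block, after thinning and without any 1 of the 4 libraries. Hhex, an anterior endoderm factor, did not pass the test (log2 0.33 ± 0.24). The simple epithelial keratins Krt8, Krt18 and Krt19 rose with log2 changes of 2.02, 1.24 and 2.19. In the visceral and parietal endoderm list 4 of 15 rose and 2 fell, beside 7.86% and 6.54% of all genes tested. Of those rises 2 were Gata4 and Gata6, which mesoderm shares.

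Among genes of the inducing pathways some ligands and inhibitors rose and others did not. Of 44 Wnt genes tested 17 rose, 4 fell and 23 did not pass, with a median log2 change of 0.40. Wnt3, the ligand required for streak formation, had 92.4 and 85.5 CPM in RepB and WT at day 6, against 29.4 and 13.4 CPM at day 5 (log2 2.20 ± 0.20). Wnt5a, a ligand of the extending axis, had 30.0 and 27.5 CPM against 1.51 and 0.73 CPM (log2 4.90 ± 0.26). The secreted inhibitors Dkk1 (log2 5.33 ± 0.28) and Frzb (4.23 ± 0.22) and the target gene Axin2 (1.31 ± 0.16) rose too. The secreted inhibitor Sfrp2 fell (log2 -0.88 ± 0.14), and Sfrp1, Sfrp5 and Notum did not pass the test. The shared effector Ctnnb1 was near 0 (log2 0.00 ± 0.10, adjusted p = 0.99). The repressor Tcf7l1 fell, with 174 and 256 CPM in RepB and WT at day 6 against 318 and 390 CPM at day 5.

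Of 39 genes of the Nodal, activin and BMP pathways 16 rose, 3 fell and 20 did not pass (median log2 0.28). The ligand Bmp2 had 24.5 and 19.4 CPM in RepB and WT at day 6, against 1.51 and 0.84 CPM at day 5 (log2 4.34 ± 0.25). Bmp4 rose by 1.47 ± 0.14 on the log2 scale, and the BMP target Id1 by 1.57 ± 0.12. The antagonist Nog (log2 3.76 ± 0.29) and the ligand Tgfb1 (2.74 ± 0.14) rose. Lefty1 and Gdf3, Nodal-related genes of the epiblast, and the inhibitor Smad7 were the 3 that fell. The BMP ligand genes Bmp5 and Bmp7 also rose, whereas Nodal did not pass.

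In the FGF list 8 of 26 rose and 4 fell, beside 7.86% and 6.54% of all genes tested. Fgf10 had 46.3 and 43.7 CPM in RepB and WT at day 6, against 1.70 and 1.63 CPM at day 5 (log2 4.75 ± 0.19), and the ERK phosphatase gene Dusp6 had 254 and 247 CPM against 165 and 169 CPM (log2 0.58 ± 0.09). Other ERK feedback and target genes were mixed. Dusp4, Dusp5 and Spred1 rose (log2 0.60, 0.65 and 0.77), and Etv5 and Spry1 fell (log2 -0.53 and -0.39). Spry2, Spry4, Spred2, Etv1, Etv4 and Il17rd did not pass the test. Receptors Fgfr1 to Fgfr4 did not pass the test. Among 12 retinoic acid genes 5 rose and 4 fell. Cyp26a1, the enzyme that degrades retinoic acid in the streak, stood at 135 and 125 CPM in RepB and WT at day 6, against 7.55 and 4.22 CPM at day 5 (log2 4.61 ± 0.17). The synthesis enzyme Aldh1a2 had 1.86 and 1.67 CPM against 0.19 and 0.56 CPM, and its call was lost under 8 of the 11 alternatives. Of 16 Notch and segmentation genes 6 rose and 1 fell, and among them the ligands Dll3 and Dll1 had log2 changes of 1.94 and 1.21.

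**Figure D3:**
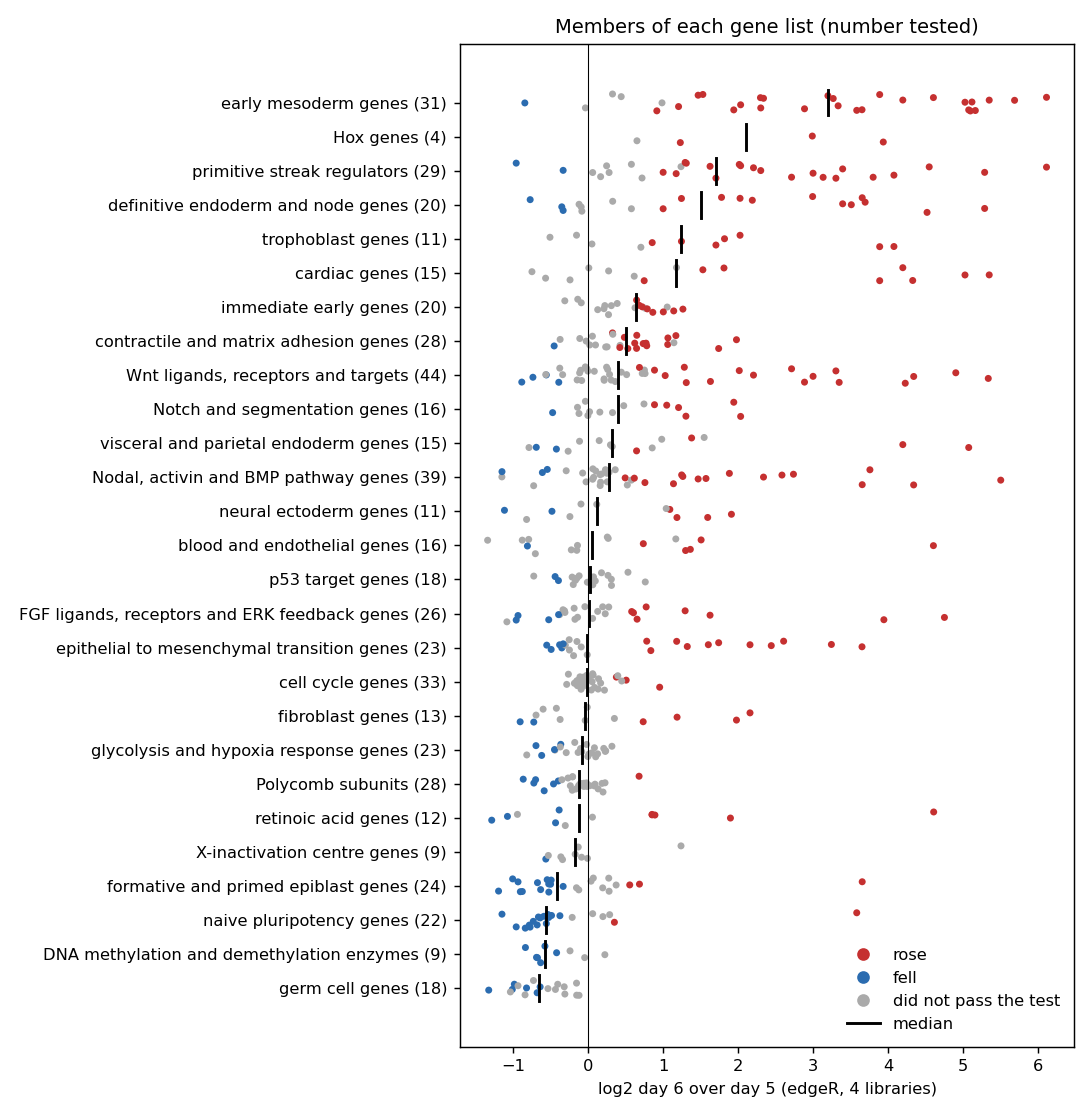
Log2 day 6 over day 5 from the edgeR fit for each tested member of 27 gene lists (red rose, blue fell, grey did not pass the test; black bars are list medians), with lists ordered by median. Early mesoderm, Hox, streak and endoderm genes lie to the right, and germ cell, DNA methylation, naive and epiblast genes lie to the left. Some genes belong to more than 1 list.

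The list of epithelial to mesenchymal transition genes split in 2 directions, 11 of 23 up and 5 down. Cdh2 (N-cadherin) had 188 and 194 CPM in RepB and WT at day 6, against 32.1 and 30.9 CPM at day 5 (log2 2.61 ± 0.11). Vimentin (Vim), an intermediate filament of mesenchyme, had 760 and 539 CPM against 132 and 105 CPM (log2 2.44 ± 0.10). Fibronectin (Fn1), a matrix protein on which mesoderm migrates, stood at 2631 and 3082 CPM in RepB and WT at day 6, against 817 and 885 CPM at day 5. Zeb1 and Itga5, a repressor of epithelial genes and a fibronectin receptor subunit, rose by less (log2 0.84 and 0.78), and the matrix protease gene Mmp2 did not pass the test (log2 -0.01). Cdh1 (E-cadherin) fell only to 994 and 1012 CPM in RepB and WT at day 6, against 1208 and 1402 CPM at day 5 (log2 -0.38 ± 0.11, adjusted p = 0.034). Its call was lost after thinning, without a line block, with the spread of 10 libraries and without any 1 library. Epcam, Grhl2 and Esrp2, genes of epithelial adhesion, transcription and splicing, fell by 0.35 to 0.55 on the log2 scale.

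Of 28 contractile and matrix genes 16 rose and 1 fell (median log2 0.51), and of 20 immediate early genes 8 rose and 0 fell (median 0.64). The actin-binding gene Tagln had 456 and 293 CPM in RepB and WT at day 6, against 224 and 202 CPM at day 5. Fos had 13.5 and 10.3 CPM against 4.91 and 4.67 CPM. Col1a1, a collagen of both mesenchyme and feeder cells, had 77.5 and 61.5 CPM in RepB and WT at day 6, against 15.7 and 18.2 CPM at day 5. In the list of fibroblast genes 4 of 13 rose (Col1a1, Col1a2, Fbln2 and Twist2) and 2 fell (Thy1 and Cxcl12), with a median log2 change of -0.04. Fbln2, a matrix glycoprotein gene, had 32.2 and 24.6 CPM in RepB and WT at day 6, against 10.6 and 13.1 CPM at day 5, while Col3a1 and Dcn did not pass the test. The 6 feeder markers summed to 103 and 81.2 CPM in RepB and WT at day 6 and 45.5 and 55.3 CPM at day 5, against 571 and 510 CPM at day 0. Lum had at most 1 count in each of the 4 libraries. The part of fibroblasts in the rise of contractile and matrix genes was not tested.

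Pluripotency genes fell, by less than the streak genes rose. Of 22 naive pluripotency genes 15 fell and 2 rose (median log2 -0.56), and of 24 formative and primed epiblast genes 13 fell and 3 rose (median -0.41). Sox2, a core factor of pluripotency that neural cells also use, had 324 and 244 CPM in RepB and WT at day 6, against 562 and 387 CPM at day 5 (log2 -0.73 ± 0.10, adjusted p = 0.00052). Esrrb, an orphan receptor of the naive network, had 163 and 89.0 CPM against 229 and 182 CPM (log2 -0.77 ± 0.12). Pou5f1 fell to 873 and 817 CPM in RepB and WT at day 6, against 1194 and 1001 CPM at day 5 (log2 -0.38 ± 0.11, adjusted p = 0.038), a call also lost under DESeq2, after thinning, without a line block, with the spread of 10 libraries and without any 1 library. Nanog, its partner, stood at 425 and 311 CPM against 499 and 354 CPM and did not pass the test (log2 -0.21 ± 0.10, adjusted p = 0.18). Naive genes were higher in RepB than in WT on each day, for 22 of 22 genes at day 6 and 22 of 22 at day 5. Of all 13669 genes tested, 6792 were higher in RepB at day 6 and 5989 at day 5. Germ cell genes were also mostly higher in RepB, 17 of 18 on each day, and each line and day is 1 library. The members of the naive list that rose were Tbx3, which is also a mesoderm gene, and Klf5.

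Among epiblast genes Utf1, a chromatin-bound cofactor of pluripotent cells, had 198 and 224 CPM in RepB and WT at day 6, against 447 and 517 CPM at day 5 (log2 -1.19 ± 0.10, adjusted p = 8.0e-06). Foxd3 had 18.5 and 29.8 CPM against 44.4 and 53.1 CPM (log2 -1.01 ± 0.14). Fgf5, a marker of epiblast, had 203 and 274 CPM in RepB and WT at day 6, against 208 and 206 CPM at day 5, and did not pass (log2 0.19 ± 0.12). Of 9 DNA methylation and demethylation enzymes 6 fell and 0 rose. Dnmt3b, the de novo methyltransferase of the epiblast, had 608 and 1082 CPM in RepB and WT at day 6 against 1115 and 1416 CPM at day 5, and Tet2 had 41.0 and 30.4 CPM against 68.1 and 57.5 CPM. The maintenance enzyme Dnmt1 did not pass the test. In the list of 28 Polycomb genes 6 fell, among them Phc1 and Cbx7 (log2 -0.70 and -0.72), and Phc2 rose. Germ cell genes fell in 6 of 18 cases, Sycp3 furthest (log2 -1.33 ± 0.19). Over all genes tested 6.54% fell. None of the 15 naive falls was called under all 11 alternatives.

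**Figure D4:**
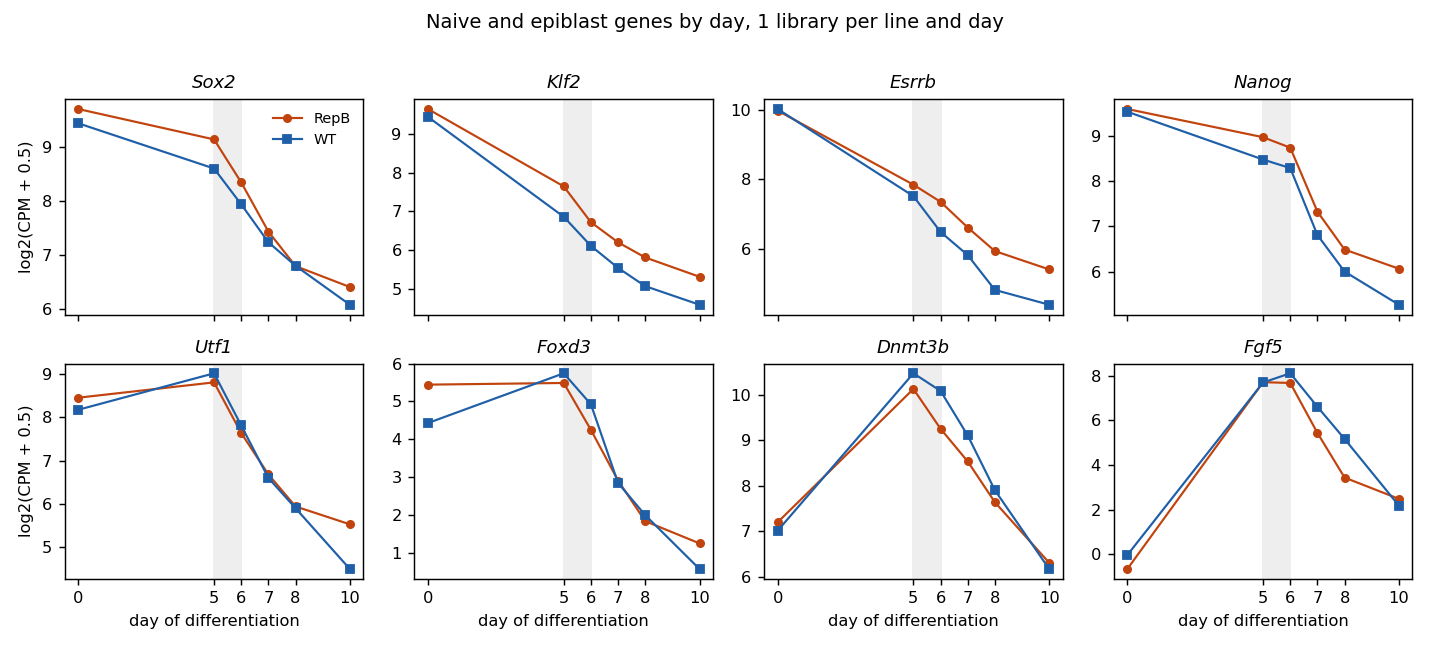
Log2 of CPM + 0.5 by day for 4 naive or core pluripotency genes (top) and 4 epiblast genes (bottom), with 1 point per library (circles RepB, squares WT) and the step from day 5 to day 6 shaded. Naive genes decline from day 0 on, whereas Dnmt3b and Fgf5 are low at day 0, high at day 5 and lower again from day 7 on.

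Lists for other lineages held several of the same genes. Of 15 cardiac genes 8 rose, of which Hand1, Gata4, Isl1, Hand2 and Tbx20 are also in the mesoderm list, and Tbx5, Tnnc1 and Actc1 are not. Among sarcomere genes Tnnc1 and Actc1 rose (log2 1.81 ± 0.44 and 0.75 ± 0.17), though neither under DESeq2, whereas Myh6, Myl7, Myl4, Myl3 and Tnni3 did not pass the test. Of 11 trophoblast genes 7 rose, and Gata3 and Krt7 were the only ones not also in the streak, mesoderm or endoderm lists. Of 16 blood and endothelial genes 5 rose and 1 fell: Flt1, a VEGF receptor, had 64.6 and 76.3 CPM in RepB and WT at day 6, against 23.0 and 26.7 CPM at day 5. Of 11 neural genes 4 rose (Sox1, En1, Gbx2 and Irx3, with log2 changes of 1.09, 1.91, 1.18 and 1.59) and 2 fell (Pax6 and Tubb3), with none called under all 11 alternatives. The early neural factor Sox1 rose by 1.09 ± 0.29 on the log2 scale and Pax6 fell by 1.12 ± 0.31. Both calls were lost under DESeq2, after thinning, without a line block, with the spread of 10 libraries and without any 1 library, and Sox1 was -0.36 without WT day 5. Only 4 of 39 Hox genes were tested. The filter on low counts can favour rises in this list and in the cardiac list, as in early mesoderm. Hoxb1, which lies near the 3' end of its cluster and is active in the streak, had 21.4 and 9.65 CPM in RepB and WT at day 6, against 2.27 and 0.34 CPM at day 5 (log2 3.93 ± 0.34), and Hoxb2 also rose. Of 33 cell cycle genes 3 rose, beside 7.86% of all genes tested. They were the D cyclins Ccnd2, Ccnd1 and Ccnd3, with log2 changes of 0.95, 0.51 and 0.38, and 1 was called under all 11 alternatives. Of 23 glycolysis and hypoxia genes 4 fell, and of 18 p53 target genes 2 fell, beside 6.54% of all genes tested. None of the falls in these 2 lists was called under all 11 alternatives.

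The largest rises among genes whose log2 CPM averaged 2 or more were those of 12 genes, Prdm6, Mesp1, Nrp1, Msgn1, Dkk1, Lhx1, Plxna4, Usp18, Aplnr, Asb4, Pdgfra and Gata6, with fitted folds of 33.7 to 127. Prdm6, a factor of smooth muscle progenitors, had 116 and 264 counts in RepB and WT at day 6, against 1 and 2 counts at day 5, a fold of 88.1 in RepB (95% interval from counting error 15.5 to 3508) and of 163 in WT (44.6 to 1351). Nrp1, a co-receptor for semaphorins and VEGF, had 44.0 and 40.5 CPM in RepB and WT at day 6, against 0.94 and 0.68 CPM at day 5. Plxna4, a semaphorin receptor that pairs with it, stood at 22.6 and 31.6 CPM against 0.94 and 0.68 CPM. Aplnr, the apelin receptor of mesoderm, had 59.2 and 61.6 CPM in RepB and WT at day 6, against 2.64 and 1.41 CPM at day 5, and its X-linked ligand gene Apln had 88.6 and 72.1 CPM against 9.82 and 8.38 CPM. Receptor and ligand rose over the same day in each line. Of the 12 rises 11 were called under all 11 alternatives; Usp18, with 2 counts in each day 5 library, was not called without WT day 5. The 12 largest falls (among them Wt1, Gfra1, Ttbk1, Bhlhe41, 2610528J11Rik, Nphs1, Phactr3, Patl2, Kirrel2, Abcc4 and Dnaic1) were smaller, 2.75-fold to 3.81-fold, none reached 50 CPM at day 6, and none was called under all 11 alternatives. Abcc4, an organic anion transporter, had 30.0 and 41.9 CPM in RepB and WT at day 6 against 78.1 and 121 CPM at day 5, and Wt1 had 2.44 and 4.86 CPM against 9.82 and 18.3 CPM.

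The genes that rose took different courses over the next day. These counts describe genes chosen by their day 6 levels, so a return toward lower values is favoured. Of the 1074 genes that rose, 624 (58.1%) were higher still at day 7 in both lines and 293 (27.3%) were lower in both. Of the 20 streak genes that rose, 3 were higher and 15 lower at day 7 in both lines, whereas of the 26 mesoderm genes 18 were higher and 6 lower. T had 175 and 287 CPM in RepB and WT at day 7 and 16.4 and 57.7 CPM at day 8. Hand1, a factor of lateral and cardiac mesoderm, had 31.1 and 18.9 CPM in RepB and WT at day 6 and 672 and 469 CPM at day 7. Nrp1 continued to 252 and 258 CPM at day 7 and 1537 and 1486 CPM at day 10. Of the 894 genes that fell, 617 (69.0%) were lower again at day 7 in both lines, including all 15 of the naive genes.

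No gene passed the test for a step that differed between RepB and WT: 0 of 13955 genes (0%) by edgeR, with 256 at an unadjusted p under 0.05, and 2 by DESeq2. The spread for that test came from the difference between lines over days 7, 8 and 10. In the streak list the log2 step, taken with its sign, was lower in RepB for 24 of 29 genes (82.8%, beside 45.3% of all genes tested). The share was similar in other lists: 87.5% of 24 epiblast, 83.3% of 18 p53 target and 81.8% of 11 neural genes. A lower step was not always a smaller change. The median step of epiblast genes was -0.50 in RepB and -0.25 in WT, a larger fall in RepB. Median steps in RepB and WT were -0.17 and 0.19 for p53 target genes and -0.13 and 0.32 for neural genes. Over the streak list the lines were level at day 6, with a median log2 RepB over WT of 0.03. At day 5 RepB was higher there, with a median of 0.48 and 13 genes at least 1.5-fold higher against 2 at least 1.5-fold lower. Over all genes tested the medians were 0.00 at day 6 and -0.05 at day 5. T differed by -1.37 ± 0.38 between the steps of RepB and WT (log2, SE, unadjusted p = 0.0048, adjusted p = 1). Fst, a secreted activin inhibitor, had 197 and 194 CPM in RepB and WT at day 6, against 96.8 and 29.5 CPM at day 5 (difference -1.73 ± 0.42, unadjusted p = 0.0020, adjusted p = 1). Wnt8a had 25.5 and 22.3 CPM at day 6 and 38.7 and 10.9 CPM at day 5, so that it was lower at day 6 in RepB and higher at day 6 in WT. RepB at day 5 is a single library, the shallowest of the 4, and it differed from WT in other lists too. There the median log2 RepB over WT was 0.43 for 18 p53 target genes and -0.32 for 23 glycolysis genes at day 5, against 0.19 and 0.02 at day 6. For 31 early mesoderm genes, some of them also streak genes, it was 0.36 at day 5 and 0.18 at day 6. At day 5, 12 of these were at least 1.5-fold higher in RepB and 3 at least 1.5-fold lower. The medians of 18 germ cell and 4 Hox genes were 0.57 and 1.09 at day 5, and 0.93 and 1.13 at day 6. Their part in the streak values was not tested.

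X-linked genes were 511 of those tested, and 55 rose (10.8%) and 53 fell (10.4%), beside 7.86% and 6.54% of all genes tested. The X-linked share of falls was above that of every autosome, and the share of rises was not. The median log2 change of X-linked genes less that of autosomal genes was -0.02 in RepB and -0.08 in WT. Xist had 1200 and 1330 CPM in RepB and WT at day 6, against 1486 and 1284 CPM at day 5, and did not pass the test (log2 -0.13 ± 0.12, adjusted p = 0.54). Its antisense partner Tsix stood at 13.6 and 21.7 CPM in RepB and WT at day 6, against 17.4 and 27.5 CPM at day 5 (log2 -0.34 ± 0.15, adjusted p = 0.16). Reads of these overlapping genes cannot be told apart by strand if counting ignored it, which the sources used here do not state. The cas share of Tsix was 33.3% and 91.8% in RepB and WT at day 6, against 88.9% and 92.9% at day 5. For Xist it was 17.1% and 3.17% against 18.6% and 1.89%. How many reads the 2 genes share was not tested. Ftx, a noncoding activator of Xist, was the 1 gene of 9 in the X-inactivation centre list that fell (log2 -0.56 ± 0.12).

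Allelic counts moved toward the cas allele on the X. Over the 311 X-linked genes that averaged 20 or more allelic counts, the median cas share was 66.7% and 86.0% in RepB and WT at day 6, against 63.6% and 78.7% at day 5. The odds of a cas read, from 1 fit over both lines, were higher at day 6 for 240 of the 311 genes (77.2%). The share was 50.2% of 3032 autosomal genes that used both alleles before differentiation. No such condition was set for the X-linked genes. By gene, 4 X-linked genes passed the test for a higher cas share and 1 for a lower one, where 0.0786% and 0.118% of all 10176 genes with enough allelic counts passed in these directions. Huwe1, a ubiquitin ligase gene, had a cas share of 70.7% and 88.0% in RepB and WT at day 6, against 60.3% and 79.0% at day 5 (log2 odds ratio 0.82 ± 0.16, adjusted p = 0.00058), while its total level did not pass the test. Msn, which links actin to the membrane, had a share of 82.0% and 93.8% against 74.6% and 85.7%, and Maged1 had 74.6% and 91.5% against 62.9% and 81.6%. Apln had 84.0% and 96.3% in RepB and WT at day 6 against 66.7% and 72.7% at day 5, the day 5 values resting on 18 and 55 allelic counts. Rpl39 passed in the other direction, with 11.5% and 1.85% in RepB and WT at day 6 against 9.52% and 11.1% at day 5. Counts of genes with near-identical copies, as ribosomal protein genes have, are uncertain. The Xist transcripts were mostly of the mus allele, with a cas share of 17.1% and 3.17% in RepB and WT at day 6 and of 18.6% and 1.89% at day 5, and this did not pass the test.

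**Figure D5:**
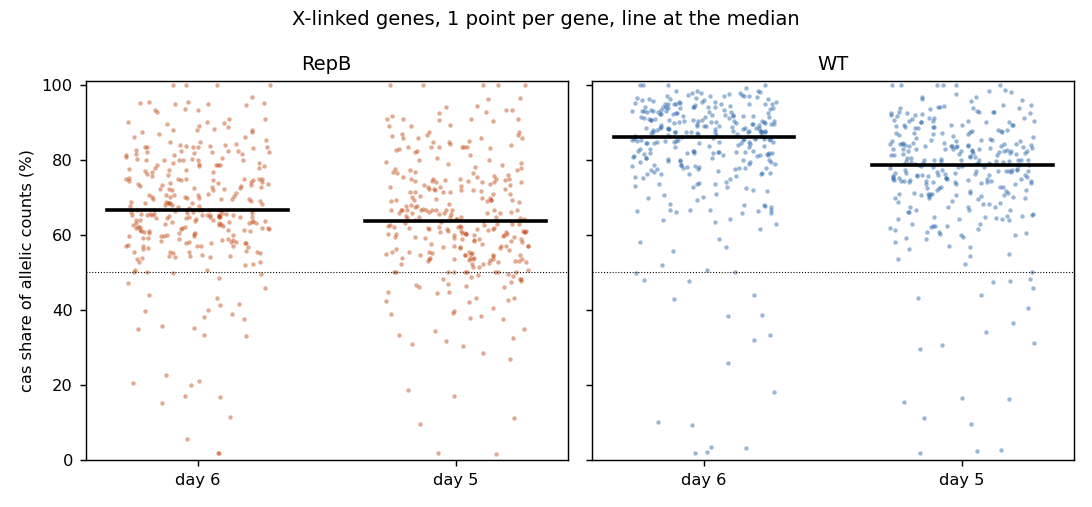
Percent of allelic counts from the cas allele for each X-linked gene with enough counts, at day 6 and day 5 in RepB (left) and WT (right); black bars are medians and the dotted line is at 50%. The medians are 66.7% at day 6 and 63.6% at day 5 in RepB, and 86.0% at day 6 and 78.7% at day 5 in WT.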

How the data were processed

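PolyA RNA of WT and RepB ES cells was measured in 12 libraries, of which the 4 of days 5 and 6 are compared here. Per the labels, the submitters' processing notes name featureCounts, TopHat, Novoalign, bedtools and SAMtools, and the build mm9, with neither roles nor versions. The deposited values are raw counts per gene for all reads and for reads assigned to the cas and mus alleles, beside exon length. A directional kit was used; whether counting used strand is not given in the sources used here. Another 6 count columns, of day 14, match no sample and were left out. The gene names of 27 rows had turned into dates. ChIP samples were not analysed here.

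Counts were tested in R 4.3.3 with edgeR 4.0.16 (TMM, filterByExpr by day, quasi-likelihood F test, line as block, 1 residual degree of freedom). Benjamini-Hochberg adjustment covered every gene of the fit, at 0.05. The common biological coefficient of variation was 8.44%. The difference between the lines' steps used the 10 libraries of days 5 to 10, and allelic shares were tested as allele by day with library as block. Alternatives used limma 3.58.1 and DESeq2 1.42.0. The scripts were tested on simulated data. Intervals of folds are exact binomial 95% intervals and, like floors, cover counting error only. Named genes were the 12 largest rises and falls, 14 fixed genes, called list members and up to 4 others per list by level. Fst, Apln, Wnt8a and Hand1 and the courses after day 6 were described after their values were seen. The comparison, gene lists and rules were chosen with earlier results of these data known, so that no list is independent evidence of its direction. Some genes that the rule for named genes picks are not reported here.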

Additional observations from a re-analysis of the deposited data

How the results depend on the processing

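Counts of genes that rose or fell depended on the test. They were 1263 and 1227 with DESeq2's size factors, 1337 and 1231 without a filter on low counts, and 1146 and 978 with limma-voom, and these were within 1.5 times of 1074 and 894. They were 491 and 252 with DESeq2's own test, 608 and 237 with the spread of 10 libraries, 557 and 359 after thinning to equal depth, and 337 and 38 without the line block. Leaving out each library in turn, in the fit with the spread of 10 libraries (608 and 237 with all of them), gave 260 to 416 rises and 18 to 121 falls. The share of calls that were rises was 54.6%, and 50.7% with DESeq2's size factors. It was 66.1% with DESeq2's own test, 72.0% with the spread of 10 libraries and 89.9% without the line block. The libraries were paired by line, since the labels carry no replicate numbers. The log2 change of Sox1 was 1.09, and -0.36 to 1.75 without 1 library. The median log2 change over all genes stayed between -0.02 and 0.01 in all settings.

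Genes whose step differed between lines were 0, and 1 with DESeq2's size factors, 4 without the filter and 2 with DESeq2; without day 7, 8 or 10 they were 3 to 9. X-linked genes with a higher cas share were 4, 3 with at least 50 allelic counts and 5 with 10 libraries. The X-linked median less the autosomal median stayed negative, at -0.02 to -0.05 in RepB and -0.08 to -0.10 in WT. The cause of these differences was not tested. Depth limits genes under about 1 CPM, where 3 counts are 0.566 CPM in the shallowest library.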
